A study of Homo sapiens with 36 samples.

Results

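Human chromosome 19 is described here as a set of regions bound by TET1, in 3 bins fixed by position on build hg19. TET1 is the dioxygenase that oxidises 5-methylcytosine. A peak went into a bin by its summit. The 19p12 bin ran from 19.8 to 24.6 Mb, the distal 19q bin from 52.0 to 59.13 Mb, and the remaining sequence outside 23.6 to 28.7 Mb was taken as the gene-dense arms. The bins measured 4.80, 7.13 and 43.1 Mb. They held 2308 of the 62066 peaks in the 6 lists of the series. Another 32 peaks of chromosome 19 lay in the excluded stretch around the centromere.

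The lists come from TET1 chromatin immunoprecipitation and sequencing in HEK293T, a human embryonic kidney line that carries the SV40 large T antigen. Each culture received 1 siRNA: siCHD5, siCHD3, siCHD4, siMBD2, siMBD3 or siNC. The first 5 are named for subunits of the NuRD complex, which joins nucleosome remodelling to histone deacetylation: CHD3, CHD4 and CHD5 are alternative remodelling ATPases of it, MBD2 recognises methylated CpG and MBD3 takes the same place in the complex. The siNC list was taken as the control because it alone is not named for a gene. All groups share the cell line and the antibody, and the labels give 3 pull-down and 3 input libraries a group. A group has 1 list, taken as called on replicates 1 to 3 together, so no value has a spread between cultures and none was tested. Intervals below are 95% intervals for counting error within a list. Levels of the targeted proteins and read totals were not analysed here.

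Chromosome 19 is known for its high gene density and for tandem families of zinc finger genes, most of which encode transcription factors with a KRAB repressor domain. These proteins bind DNA through arrays of C2H2 fingers, many of them within transposable elements, and recruit TRIM28 and histone H3 lysine 9 methylation. The clusters themselves are often covered by that repressive mark. In the RefSeq gene table (GRCh38.p14, used for names and neighbours only), 250 of 1451 protein-coding genes on chromosome 19 have ZNF names (17.2%), against 1.44% on the remaining chromosomes. The longest run of neighbouring ZNF genes held 27, from ZNF737 to ZNF681, and included ZNF91, which is known to repress SVA retrotransposons in primates. That run belongs to the 19p12 cluster. Runs known from distal 19q were shorter, such as the 12 genes from ZNF551 to ZNF256 and the 10 from ZNF577 to ZNF836. No annotation of hg19 was used, so peaks were not assigned to genes and the bins carry the names of their bands.

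TET1 peaks were almost absent from the 19p12 bin, and less dense in distal 19q than in the gene-dense arms. The 19p12 bin held 2 siCHD5 peaks and 2 siNC peaks, or 0.417 per Mb in each list (0.0505 to 1.51). Distal 19q held 100 siCHD5 peaks, 14.03 per Mb (11.4 to 17.1), and 82 siNC peaks, 11.5 per Mb (9.15 to 14.3). The gene-dense arms held 1144 siCHD5 peaks, 26.5 per Mb (25.03 to 28.1), and 970 siNC peaks, 22.5 per Mb (21.1 to 23.97). Relative to the arms, the density of the 19p12 bin was 0.0157 in siCHD5 (0.00190 to 0.0568) and 0.0185 in siNC (0.00224 to 0.0671). For distal 19q the ratio was 0.528 in siCHD5 (0.426 to 0.649) and 0.511 in siNC (0.403 to 0.641). None of these 4 intervals reached 1. They treat peaks as independent and leave out the uneven spread of peaks along a bin. Averaged over its length, distal 19q was denser than 20 of the 22 other chromosomes in siCHD5 and 19 of 22 in siNC. The medians of the other chromosomes were 10.5 and 9.31 peaks per Mb, counted between first and last summit with any centromere between them included. The distal 19q bin holds no centromere, so its denominator is not the same in kind. Without 54 to 56 Mb, distal 19q held 10.7 siCHD5 peaks and 8.58 siNC peaks per Mb, close to those medians. The 19p12 bin was below all 22 in both lists. Peaks covered 0.156 kb per Mb of the 19p12 bin in siCHD5 and 0.0979 kb in siNC, against 8.74 and 7.32 kb per Mb of the arms. How well short reads can be placed in the near-identical copies of these clusters was not tested.

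**Figure D1:**
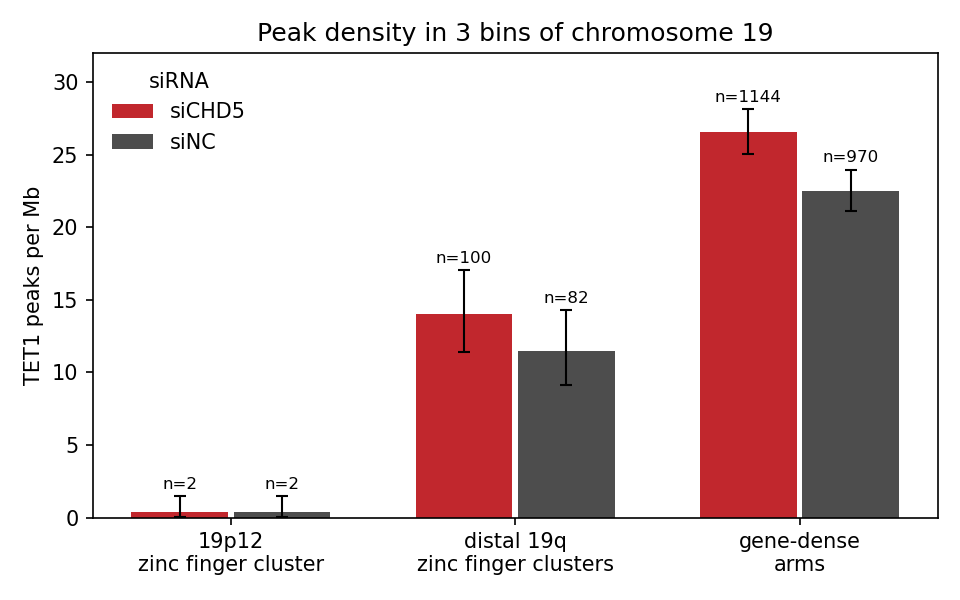
TET1 peaks per Mb (y axis) in the 19p12 bin, the distal 19q bin and the gene-dense arms, for the siCHD5 and siNC lists. Bars are peaks divided by bin length, error bars are exact Poisson 95% intervals, and n is the number of peaks; the 19p12 bars stand at 0.417 per Mb in both lists and the arms at 26.5 and 22.5.

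Peaks ended just before the 19p12 bin. The last summit below it stood at 19754797 in siCHD5 and 19754813 in siNC, 45.2 kb before the bin. The first inside it came 1631 kb further on in both lists, at 21385880 in siCHD5 and 21385879 in siNC. That site was the only one of the bin found in both lists. Its siCHD5 peak lay at 21385747 to 21386111, was 365 bp wide and had a fold enrichment of 7.36. Fold is the authors' ratio of pull-down to control background within a list. The siNC peak lay at 21385786 to 21385992, was 207 bp wide and had a fold of 5.32. The second siCHD5 peak stood alone at 24269760 to 24270144 with a fold of 3.42, and the second siNC peak stood alone at 21512019 to 21512281 with a fold of 3.43. Both lone peaks had folds in the lowest quartile of their list. Above 21512198 no siNC summit followed for 6220 kb, a distance that includes the unsequenced centromere, and siCHD5 had only the lone peak between.

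Windows of 1 Mb showed where the sparse stretches lay. Of 4 whole windows in the 19p12 bin, 3 held no siCHD5 peak and 3 held no siNC peak. Over chromosomes 1 to 22 and X, 5.26% of 2965 windows held no siCHD5 peak and 5.97% no siNC peak, and the median window held 10 siCHD5 peaks and 8 siNC peaks. Distal 19q was uneven: its whole windows ranged from 1 to 27 peaks in siCHD5 and from 3 to 24 in siNC. The window from 53 to 54 Mb held 1 siCHD5 peak and 3 siNC peaks, of which none was shared. A stretch of 958 kb between siCHD5 summits at 52741219 and 53698754 and one of 1017 kb between siNC summits at 52846975 and 53863913 fell largely in that window. From 57 to 58 Mb there were 6 siCHD5 peaks and 4 siNC peaks, and from 58 to 59 Mb there were 9 and 3. The window from 54 to 55 Mb was the densest of the bin, with 27 siCHD5 peaks and 24 siNC peaks, 22 of the siCHD5 peaks being shared.

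The distal 19q bin is not made of zinc finger genes alone. The sequence from 54 to 56 Mb is known to include the leukocyte receptor genes, which encode immunoglobulin-like receptors of immune cells. How much of the sequence these genes fill, and which peaks lie at them, was not examined. The whole stretch held 45 siCHD5 peaks, 22.5 per Mb (16.4 to 30.1), and 38 siNC peaks, 19 per Mb (13.4 to 26.1). Both intervals include the density of the arms in the same list. The remainder of distal 19q held 55 siCHD5 peaks, 10.7 per Mb (8.08 to 13.96), and 44 siNC peaks, 8.58 per Mb (6.23 to 11.5). Of these, 21 siCHD5 peaks and 20 siNC peaks lay in the window from 56 to 57 Mb, more than in the one from 55 to 56 Mb (18 and 14). Without the stretch from 54 to 56 Mb, the ratio to the arms was 0.404 in siCHD5 and 0.381 in siNC.

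The arms contain zinc finger clusters too. The windows at 9 to 10, 11 to 13, 35 to 39 and 44 to 45 Mb, where such clusters are known from general knowledge of the chromosome, held 120 siCHD5 peaks, 15 per Mb (12.4 to 17.9), and 95 siNC peaks, 11.9 per Mb (9.61 to 14.5). The other 35.1 Mb of the arms held 29.2 per Mb in siCHD5 (27.4 to 31.02) and 24.9 per Mb in siNC (23.3 to 26.6). Without an annotation of hg19, that remainder was not shown to be free of zinc finger clusters. The poorest window of the arms, from 37 to 38 Mb, was one of these, with 1 siCHD5 peak and 0 siNC peaks. The longest summit-free stretch within the arms fell there, 803 kb in siCHD5 from 37407394 to 38210741 and 1227 kb in siNC from 36984223 to the same base. These windows were not uniformly poor: the one from 11 to 12 Mb held 24 siCHD5 peaks and 22 siNC peaks. Outside them, the windows from 29 to 30 Mb (4 siCHD5 and 4 siNC peaks) and from 32 to 33 Mb (4 and 3) were also sparse. The densest window of the chromosome lay from 48 to 49 Mb, with 49 siCHD5 peaks and 47 siNC peaks. At least as many peaks stood in only 6 windows of the genome in siCHD5 and 3 in siNC, that window included.

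**Figure D2:**
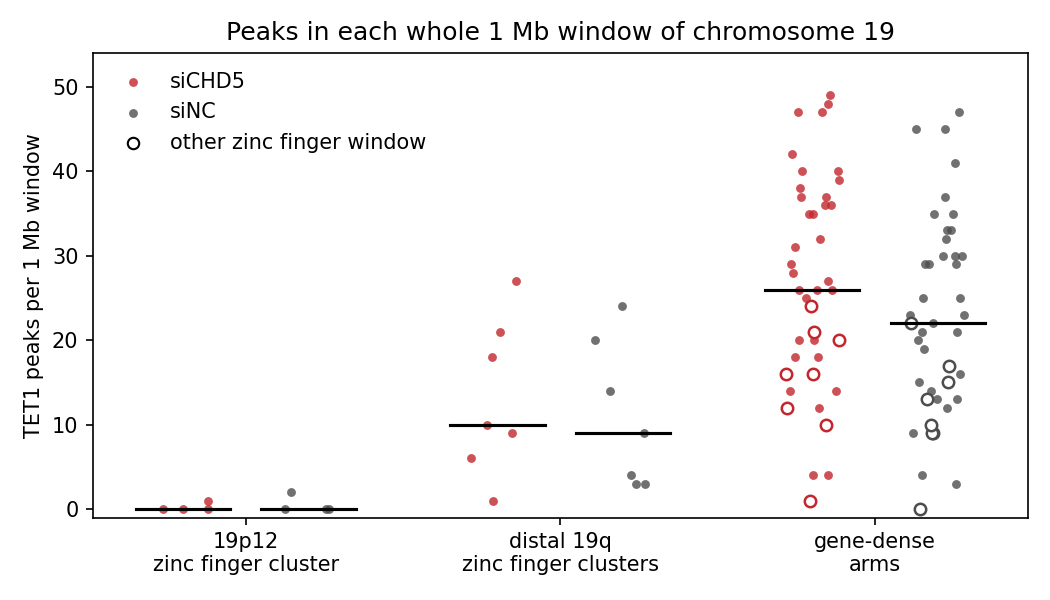
TET1 peaks in each whole 1 Mb window of chromosome 19 (y axis) by bin, for the siCHD5 and siNC lists. Each point is a window, horizontal lines are medians, and open circles mark windows of the arms with other zinc finger clusters; the 19p12 windows hold 0 to 2 peaks while the median window of the arms holds 26 siCHD5 peaks and 22 siNC peaks.

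Set among the other chromosomes, chromosome 19 was dense, although its 19p12 bin held so few peaks. It held 21.2 siCHD5 peaks and 18.0 siNC peaks per Mb between its first and last summit, the second highest of 23 chromosomes in both lists. Chromosome 17 had 21.5 siCHD5 and 18.6 siNC peaks per Mb, and chromosome 22 had 20.1 and 17.6. The short-arm part of the gene-dense arms held 27.98 siCHD5 peaks and 22.9 siNC peaks per Mb. The long-arm part held 25.3 and 22.2.

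Peaks of distal 19q had a lower median fold in their own list than peaks of the arms, by a margin close to the counting error. Median fold in siCHD5 was 7.39 in distal 19q (6.81 to 7.97) and 8.14 in the arms (7.84 to 8.41). In siNC it was 6.86 in distal 19q (6.24 to 7.72) and 7.90 in the arms (7.69 to 8.09). The intervals of the bins overlapped at their ends in both lists. The highest quartile of fold in the whole list, which by construction takes 25% of peaks, held 23 of 100 siCHD5 peaks in distal 19q (23%, 15.2 to 32.5) and 410 of 1144 in the arms (35.8%, 33.1 to 38.7). It held 23 of 82 siNC peaks in distal 19q (28.0%, 18.7 to 39.1) and 373 of 970 in the arms (38.5%, 35.4 to 41.6). No 19p12 peak was in that quartile in either list. The control background at the summits, recovered from fold and p-value, had medians of 2.80 reads in 19p12, 2.80 in distal 19q and 3.10 in the arms in siCHD5. In siNC the medians were 3.10, 2.64 and 2.64 reads. The siCHD5 medians of 2.80 reads stood at the lowest background recovered in that list. The median pull-down pileup was 31.5 reads in distal 19q and 36 in the arms in siCHD5, and 26.5 and 33 in siNC.

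Individual distal 19q sites were nonetheless strong in both lists. The highest in each was the same site, a siCHD5 peak at 56165031 to 56165550 (21.6-fold) and a siNC peak at 56165028 to 56165354 (17.9-fold). Further siCHD5 peaks stood at 55671923 to 55672252 (20.2-fold), 59092486 to 59092929 (19.6-fold), 56015335 to 56015759 (18.4-fold) and 54296221 to 54296633 (16.6-fold), and siNC had a peak at each. In siNC the next were 56015349 to 56015778 (16.8-fold), 55929543 to 55929910 (15.8-fold), 54527132 to 54527468 (15.4-fold) and 59092497 to 59092911 (15.3-fold), and siCHD5 had a peak at each. None of these sites lay in the windows from 52 to 54 Mb or 57 to 59 Mb.

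In the arms the highest siCHD5 peaks reached further. They stood at 50009839 to 50010214 and 49601050 to 49601482 (24.4-fold each), 48423305 to 48423748 (24.1-fold), 47141788 to 47142156 (23.6-fold) and 15740150 to 15740463 (23.4-fold). The highest siNC peaks stood at 50604151 to 50604620 (26.4-fold), 50073370 to 50073790 (24.5-fold), 36184585 to 36184976 (22.6-fold), 42612733 to 42613071 (20.9-fold) and 50626303 to 50626835 (20.1-fold). Each of these 10 had a partner in the other list, but the 5 of highest fold were different sites in the 2 lists.

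Distal 19q peaks had a lower median width than arm peaks. Median width in siCHD5 was 286.5 bp in distal 19q (266 to 307) and 319 bp in the arms (311 to 325), a difference of −32.5 bp. In siNC it was 291 bp (267 to 311) and 316 bp (308 to 324), a difference of −25 bp. The intervals of the bins did not overlap in siCHD5 and overlapped in siNC. Over all chromosomes the median was 301 bp in siCHD5 and 300 bp in siNC. The arm medians lay above these values, with intervals that did not include them. The distal 19q medians lay below, but their intervals included the genome medians. Width rose with fold. In the lowest fold quartile the siCHD5 medians were 242 bp in distal 19q (219 to 296) and 254 bp in the arms (243 to 278), and in the highest 350 bp (304 to 390) and 370.5 bp (364 to 380). In siNC they were 257 bp in distal 19q (234 to 300) and 263.5 bp in the arms (248 to 278) in the lowest quartile, and 333 bp (311 to 368) and 356 bp (348 to 365) in the highest. Within these quartiles the intervals of the bins overlapped.

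**Figure D3:**
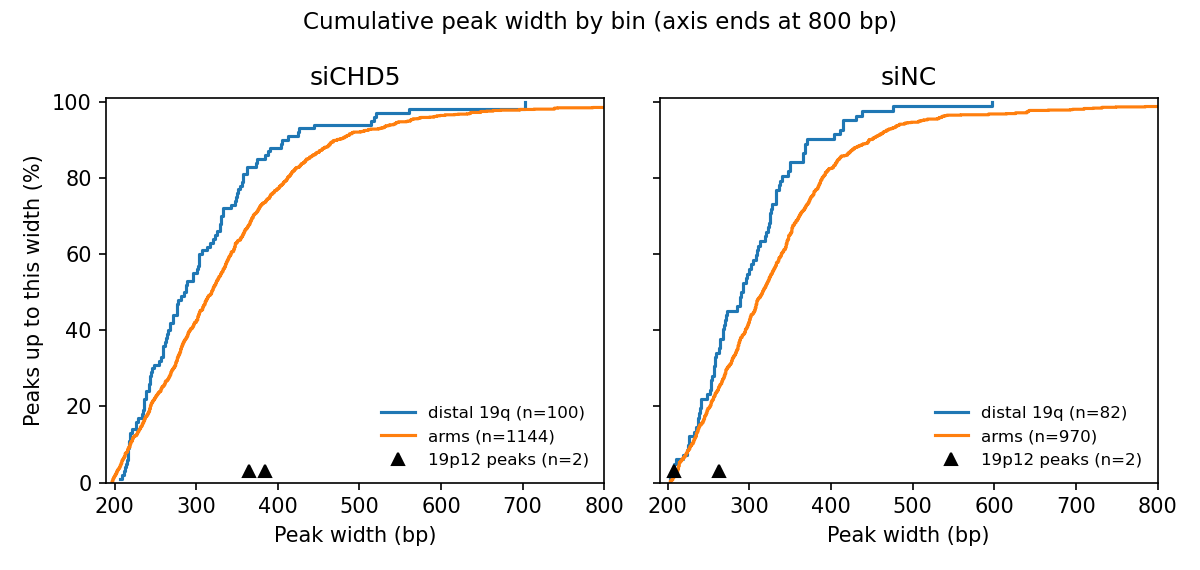
Share of peaks up to a given width (y axis, %) against peak width in bp (x axis), for siCHD5 and siNC. Lines are distal 19q and the gene-dense arms, and triangles are the 2 peaks of the 19p12 bin in each list; the distal 19q line runs left of the arms over most widths, with medians of 286.5 against 319 bp in siCHD5 and 291 against 316 bp in siNC.

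Wide peaks were few in both bins. Peaks wider than 500 bp made up 6 of 100 in distal 19q (6%, 2.23 to 12.6) and 91 of 1144 in the arms (7.95%, 6.45 to 9.68) in siCHD5, where the whole list had 5.42%. In siNC they made up 1 of 82 in distal 19q (1.22%, 0.0309 to 6.61) and 52 of 970 in the arms (5.36%, 4.03 to 6.97), with 4.66% in the whole list. The widest siCHD5 interval of distal 19q spanned 703 bp at 59030886 to 59031588 with 2 summits, and the widest siNC interval spanned 597 bp at 55652448 to 55653044. The widest of the arms spanned 1109 bp in siCHD5 at 51298823 to 51299931, and 1151 bp in siNC at 45996039 to 45997189. Intervals with several summits numbered 1 of 99 in distal 19q and 22 of 1122 in the arms in siCHD5 (1.58% in the whole list), and 0 of 82 and 13 of 956 in siNC (1.31%). Neighbouring summits of different intervals were 30.0 kb apart in median in distal 19q (20.8 to 39.6) and 21.1 kb in the arms (18.9 to 23.03) in siCHD5. In siNC these medians were 31.5 kb (21.9 to 44.4) and 23.7 kb (21.7 to 27.2).

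Sharing between the siCHD5 and siNC lists asks which sites were called after both siRNAs. Peaks sharing at least 1 bp were counted, and over the whole lists 74.5% of siCHD5 peaks were overlapped by siNC and 85.4% of siNC peaks by siCHD5. In distal 19q, 73 of 100 siCHD5 peaks were overlapped by siNC (73%, 63.2 to 81.4), against 881 of 1144 in the arms (77.01%, 74.5 to 79.4). In the other direction, siCHD5 overlapped 73 of 82 siNC peaks in distal 19q (89.0%, 80.2 to 94.9) and 875 of 970 in the arms (90.2%, 88.2 to 92.004). The 19p12 bin shared 1 of 2 peaks in each direction, which allows shares from 1.26% to 98.7%. The intervals of the bins overlapped in both directions, and a difference in sharing was not tested. Of chromosome 19 as a whole, centromere stretch included, siNC overlapped 76.8% of siCHD5 peaks, rank 3 of 23 chromosomes, after chromosome 15 (78.04%) and chromosome 22 (77.6%). In the other direction siCHD5 overlapped 90.1% of siNC peaks, the highest share, followed by chromosome 22 (88.5%) and chromosome 11 (88.4%). These ranks were not adjusted for fold. Chromosome 19 had 34.6% of its siCHD5 peaks and 37.5% of its siNC peaks in the highest fold quartile, rank 2 of 23 in each list.

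The shared share followed fold in both bins. Among siCHD5 peaks of the lowest fold quartile, siNC overlapped 8 of 17 in distal 19q (47.1%, 22.98 to 72.2) and 71 of 225 in the arms (31.6%, 25.5 to 38.1), against 40.2% on the other chromosomes (39.1 to 41.2). In the highest quartile siNC overlapped 22 of 23 siCHD5 peaks in distal 19q and 403 of 410 in the arms (98.3%), against 97.8% on the other chromosomes. Among siNC peaks of the lowest quartile, siCHD5 overlapped 10 of 17 in distal 19q (58.8%, 32.9 to 81.6) and 94 of 158 in the arms (59.5%, 51.4 to 67.2), against 59.6% on the other chromosomes. In the highest it overlapped 23 of 23 in distal 19q and 370 of 373 in the arms, against 99.4% on the other chromosomes. For siCHD5 peaks of the lowest quartile in the arms, the interval thus ended below that of the other chromosomes, and this difference was not tested.

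**Figure D4:**
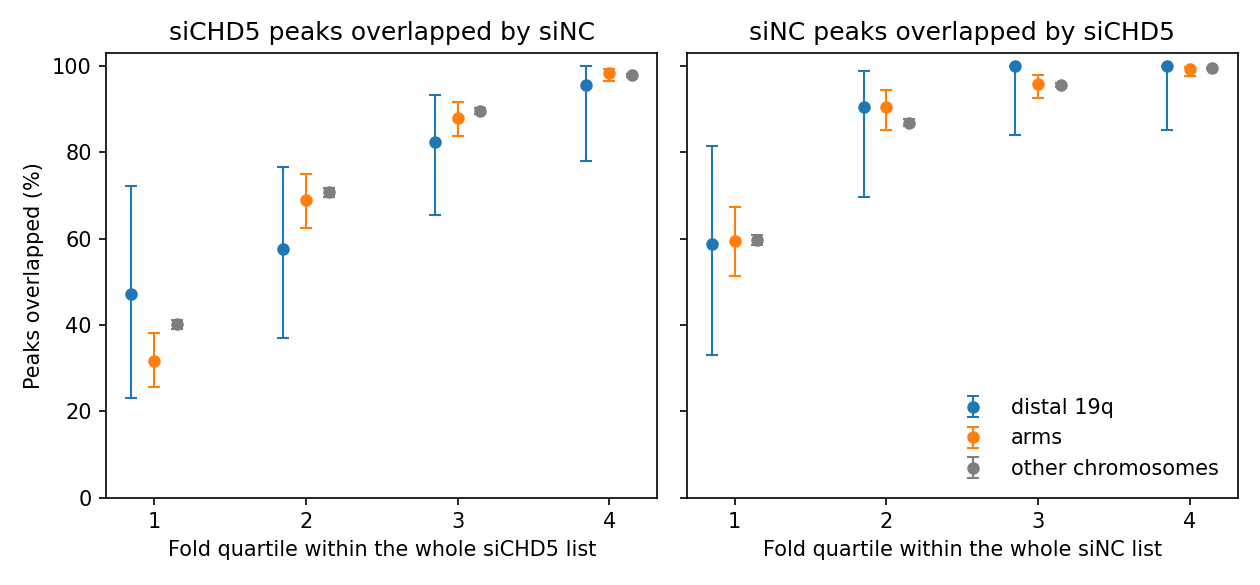
Share of peaks with a partner in the other list (y axis, %) by fold quartile within the whole list (x axis), for siCHD5 peaks overlapped by siNC and siNC peaks overlapped by siCHD5. Points are distal 19q, the arms and the other chromosomes, with exact 95% intervals; the share climbs with fold in each, to 98.3% of siCHD5 peaks and 370 of 373 siNC peaks in the arms.

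Sites without a partner were low in fold. The 27 lone siCHD5 peaks of distal 19q had a median fold of 5.71, against 7.92 for the 73 shared. For the arms the medians were 4.47 for 263 lone siCHD5 peaks and 9.20 for 881 shared. The 9 lone siNC peaks of distal 19q had a median fold of 3.72, against 7.15 for those shared, and the 95 of the arms had 4.39, against 8.28. The strongest lone siCHD5 peaks of distal 19q stood at 58666448 to 58666754 (9.73-fold), 52111198 to 52111499 (9.46-fold) and 55392798 to 55393075 (8.94-fold). The strongest lone siNC peaks there had lower folds, at 53928347 to 53928572 (5.43-fold), 52846874 to 52847080 (5.15-fold) and 54713891 to 54714124 (4.003-fold). They came from 9 lone peaks against 27 in siCHD5, and fold was not put on a common scale between lists. In the arms the strongest lone siCHD5 peaks stood at 45074137 to 45074401 (11.6-fold), 38893458 to 38893896 (10.5-fold) and 5048334 to 5048602 (10.3-fold). In siNC they stood at 17403662 to 17403892 (11.4-fold), and at 45907208 to 45907701 and 45017061 to 45017316 (9.44-fold each).

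Where sites were shared, their summits nearly coincided. The siCHD5 summit lay a median of 11 bp from the nearest siNC summit in distal 19q (8 to 16, n = 73) and 10 bp in the arms (9 to 10, n = 881), and 97.3% and 97.6% lay within 100 bp. In 19p12 the distance was 1 bp. The siCHD5 list held 1.22 times as many peaks as siNC in distal 19q (0.902 to 1.65) and 1.18 times in the arms (1.08 to 1.29), against 1.15 times on the other chromosomes (1.13 to 1.17). In 19p12 the ratio was 1, with an interval of 0.0725 to 13.8. These intervals overlapped, and a separate change in the clusters was not tested.

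The 4 short lists held few peaks over all chromosomes: 140 in siCHD3, 110 in siCHD4, 358 in siMBD2 and 259 in siMBD3. The siCHD5 list held 32749 and the siNC list 28450. None of the 4 short lists had a peak in either zinc finger bin. With 0 peaks, the exact Poisson intervals reached up to 0.769 per Mb in 19p12 and 0.517 per Mb in distal 19q in each list. The arms held 5 siMBD3 peaks in 3 intervals, 2 siMBD2 peaks, 1 siCHD4 peak and 0 siCHD3 peaks, so the bins could not be told apart in these lists. Over their whole lists, siNC overlapped 46.4% of siCHD4 peaks, 20.7% of siMBD2 peaks and 22% of siMBD3 peaks. The siCHD4 peak at 7515625 to 7515846 (2.44-fold) and a siMBD3 peak at 7515634 to 7515893 (1.79-fold) marked the same site, where siNC had a 2.41-fold peak and siCHD5 a peak as well. A siMBD2 peak at 50601218 to 50601503 (4.86-fold) lay over a 17.2-fold siNC peak and a siCHD5 peak, whereas the one at 14637004 to 14637306 (4.40-fold) was in no other list. In siMBD3 the interval at 13263263 to 13263967 carried 3 summits of 4.13-fold to 4.88-fold and overlapped siCHD5 but not siNC, and the peak at 39173662 to 39174023 (3.89-fold) stood alone. The rest of chromosome 19 in these lists lay in the excluded stretch, from 27731954 to 27738648, with 6 siCHD3 peaks and 5 in each of siCHD4, siMBD2 and siMBD3. The whole excluded stretch held 6 siCHD5 peaks, the last ending at 28465189, and 5 siNC peaks, the last ending at 28465233.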

How the data were processed

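The 36 libraries in the labels are 18 TET1 pull-downs and 18 inputs. Per the submitters' processing notes, the build was hg19 and the tools included Bowtie2 2.3.4 and MACS2 2.1.2; caller settings and filters are not given in the sources used here. Each deposited list gives, per summit, a fold enrichment as the authors' peak caller wrote it, a ratio of pull-down to control background. It also gives a −log10 p-value and a −log10 q-value from the same caller, and a deposited score. The score equals 10 times the −log10 q-value, truncated. Peaks with several summits have a line for each. From these values, bins, densities, overlaps, quartiles of fold within the whole list and medians were computed with Python 3.11.15, pandas 2.3.3 and scipy 1.17.1. Densities carry exact Poisson intervals, density ratios conditional binomial intervals, shares Clopper-Pearson intervals and medians order-statistic intervals. Pileup and control background were recovered from fold and −log10 p (pseudocount 1, tolerance 0.02) for 1251 of 1252 siCHD5 peaks and 1058 of 1059 siNC peaks of chromosome 19. Depth is known only through that background, whose lowest value was 2.80 reads in siCHD5 and 2.50 in siNC. Coordinates are hg19, counted from 1. Named peaks followed a fixed rule: the 5 highest folds, the 3 highest lone folds and the widest intervals of each bin and list, the extreme windows, and the peaks of the short lists in the bins; other windows were named after their values were seen. Bins, windows and comparisons were chosen with earlier results of these data known. The procedures were tested on simulated data.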

Additional observations from a re-analysis of the deposited data

How the results depend on the processing

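The density ratios, peak number ratios, median widths and shares, 19 results in all, were each recomputed under 2 to 5 of 8 other settings. Of 69 values, 59 stayed within the interval of the reported value. That was a 95% interval, except for 19p12 median widths, where the range of the 2 peaks stood in for it. The count includes 19p12 results from 1 or 2 peaks, most with very wide intervals. It also includes the 19p12 density ratios without 54 to 56 Mb of distal 19q, which that setting cannot change. No ratio with an interval clear of 1 crossed it. Leaving 54 to 56 Mb out of distal 19q lowered its density ratio to the arms to 0.404 in siCHD5 and 0.381 in siNC. With peaks of −log10 q of at least 5 alone, 100% of the single 19p12 peak left in siCHD5 and in siNC was shared. The same minimum gave 82.6% of siCHD5 peaks shared in the arms, 95.8% of siNC peaks in distal 19q and 93.6% of siNC peaks in the arms. Distal 19q then stood 2.22 percentage points above the arms in siNC, where all peaks gave −1.18. In siCHD5 the difference was −7.01 points, where all peaks gave −4.01. Overlap of at least 50% of both intervals gave 87.4% for siNC peaks of the arms. With that overlap, distal 19q less arms was −5.48 percentage points in siCHD5 and −3.28 in siNC. Standardised to the fold quartiles of the whole list, the arms had 71.7% in siCHD5 and 86.2% in siNC; distal 19q less arms was then −1.03 percentage points in siCHD5 and 1.08 in siNC. Medians of distal 19q were below those of the arms by 23.5 to 38.5 bp under the settings tried for width. The cause of these shifts was not tested. No paired analysis was possible because each group has 1 list of pooled replicates and no result comes from a test, and for the same reason no replicate could be left out. Counts of 1 and 2 peaks in 19p12 limit what can be said of width and sharing there.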
